A study of Sus scrofa with 15 samples.

Results

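Genes of the circadian clock were followed in backfat, the subcutaneous fat of the back, of growing Iberian pigs. The members were 10 genes taken by their symbols, with earlier results of these data known. They were BMAL1, CLOCK, PER1, PER2, PER3, CRY1, CRY2, NR1D1, NR1D2 and DBP. Of these, 9 were matched to an identifier among the 30477 genes counted, and PER3 was not analysed here because its symbol was not paired with an identifier in the tables used. All 9 passed the filter on low counts and stood among the 14918 genes tested. RNA-seq had been run on 15 biopsies, 1 per pig, with 5 pigs for each of 3 diets. All pigs were Iberian, 6.5 months old when the diets began and 12 months old at the biopsy. The control diet (C) was a compound feed given at 70% of the energy that pigs eat when unrestricted. The DOP diet was a compound feed made with dry olive pulp and given at 60%. The WCOC diet was a compound feed without olive by-product at 60%, together with a silage of wet crude olive cake and barley straw that was always on offer. Each diet had a pen of its own and intake was not recorded for single pigs, so diet and pen cannot be told apart. The hour of each biopsy and the time since the last meal are not given in the sources used here, so diet and sampling time cannot be told apart either.

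The circadian clock is a loop of transcription factors that runs in nearly every cell with a period of about a day, in fat as in liver. BMAL1 and CLOCK form a pair that binds E-box sequences and switches on the PER, CRY, NR1D and DBP genes. PER and CRY proteins return to the nucleus and block that pair. NR1D1 and NR1D2 (REV-ERB alpha and beta) compete with the ROR receptors for ROR elements and repress BMAL1, so BMAL1 and NR1D1 transcripts peak at opposite times of the day. DBP drives output genes through D-box sequences. A single biopsy per pig reads such a cycle at 1 time only.

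The libraries held 22373715 to 34745218 counts on genes, and the median library of a diet held 27522449 (C), 29104570 (DOP) or 27098819 (WCOC). The members were well covered: the lowest count of any member in any library was 286 (CRY1) and the highest was 6004 (PER1). By their run identifiers, 4 of the C and all WCOC libraries came from one flow cell (A here) and the 5 DOP libraries and C replicate 5 from another (B). Markers of adipocytes were high in every library, with 7 of 7 matched and a summed level of 12092 to 21377 CPM (counts per 1e6 counts on genes, scaled by TMM). Skeletal muscle markers (4 of 8 matched: ACTA1, CKM, TNNC2 and TNNT3) summed to 42.6 to 3152 CPM in C, 31.0 to 40652 CPM in DOP and 16.5 to 627 CPM in WCOC, and DOP replicates 2, 4 and 5 stood apart with 9157, 5164 and 40652 CPM. Macrophage markers (8 of 8 matched) summed to 237 to 704 CPM in C, 171 to 434 CPM in DOP and 111 to 317 CPM in WCOC. In bulk tissue, fewer cells of a type and less RNA per cell cannot be told apart.

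The WCOC pigs differed from both other groups in the opposed arms of the clock: BMAL1 was higher and NR1D1 lower. A difference was called where edgeR's quasi-likelihood test gave an adjusted p under 0.05 and a log2 fold change (log2FC) of at least 0.58 in size. In WCOC vs. C, 2 of 9 members were called, BMAL1 higher and NR1D1 lower, where 6.25% of all tested genes were called (2.33% higher and 3.93% lower). The values of both genes did not overlap between the diets, as for 7.62% of all tested genes. In WCOC vs. DOP, 4 of 9 members were called, BMAL1 higher and PER1, NR1D1 and NR1D2 lower, where 7.76% of all tested genes were called (2.65% higher and 5.11% lower). The values of BMAL1, PER1 and NR1D1 did not overlap, as for 8.9% of all tested genes. In DOP vs. C, 0 of 9 members were called by edgeR and 0 by DESeq2, where 0.764% of all tested genes were called by edgeR, and 2 members (PER1 and NR1D2) had an unadjusted p under 0.05, as had 17.6% of all tested genes. The median log2FC of the 9 members was -0.23 in WCOC vs. C, -0.06 in WCOC vs. DOP and 0.03 in DOP vs. C, and over all tested genes it was 0.0043, 0.00067 and 0.011. The WCOC libraries enter 2 of these comparisons, so the calls of BMAL1 and NR1D1 in both are not separate evidence.

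**Figure D1:**
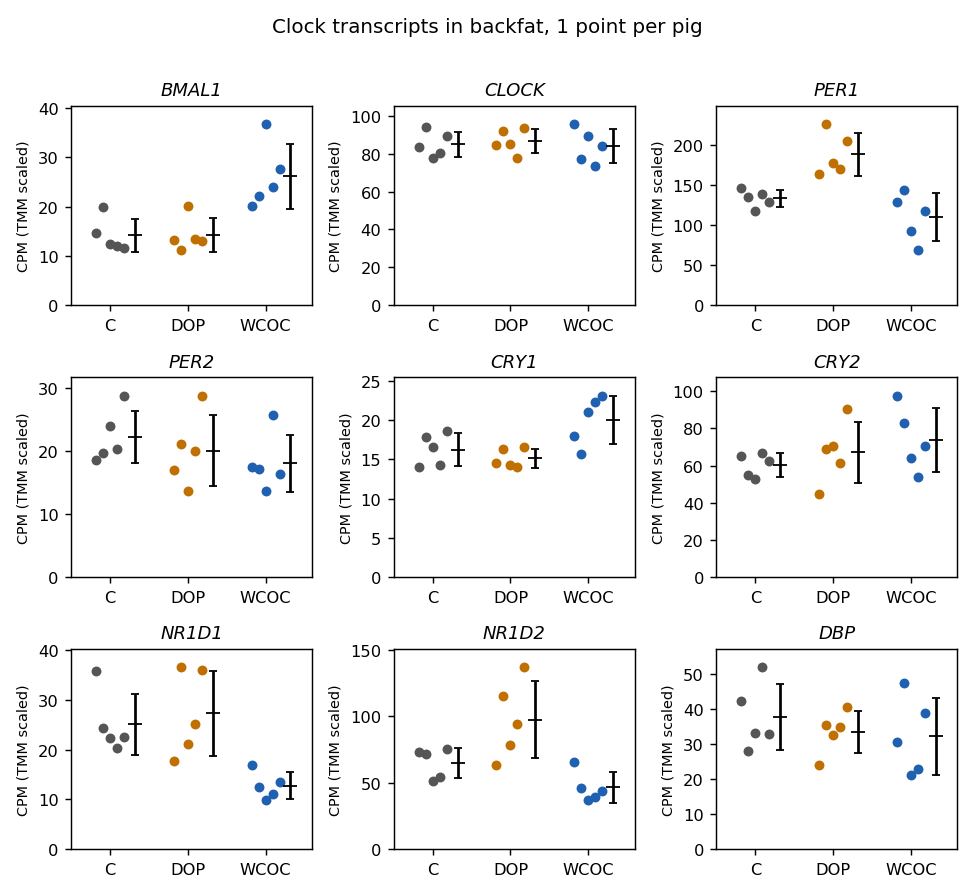
Level of the 9 clock genes in each library (vertical axis, CPM scaled by TMM, from 0) by diet (horizontal axis, 5 pigs per diet); each point is 1 pig and the bar beside the points is the mean with 1 SD. BMAL1 in the WCOC pigs lies between 20.2 and 36.8 CPM and all C and DOP pigs lie below, and NR1D1 in the WCOC pigs lies between 9.76 and 16.9 CPM, below all others.

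BMAL1 encodes the activator whose transcript swings most within the core pair. Its gene (ENSSSCG00000013397) lies on the minus strand of chromosome 2, from 45895637 to 46025174 of Sscrofa11.1. The C replicates 1 to 5 had 14.7, 19.9, 12.5, 12.1 and 11.6 CPM. The DOP replicates had 13.2, 11.2, 20.1, 13.3 and 13.1 CPM. The WCOC replicates had 20.2, 22.2, 36.8, 23.9 and 27.6 CPM. Every WCOC pig was above every C and DOP pig, although WCOC replicate 1 exceeded DOP replicate 3 only narrowly. The mean rose 1.85-fold from 14.2 ± 3.40 CPM in C to 26.1 ± 6.55 CPM in WCOC (SD, n = 5 each), with a log2FC of 0.89 (SE 0.20) and an adjusted p of 0.0143 by edgeR. Against DOP, with 14.2 ± 3.41 CPM, the rise was 1.84-fold (log2FC 0.88, SE 0.20, edgeR adjusted p = 0.0136). This call was lost with flow cell or the muscle markers as a covariate, and without the 5 libraries above 1000 CPM of muscle markers. Between DOP and C the log2FC was 0.0065 (SE 0.20, edgeR adjusted p = 0.991).

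The ROR element is the sequence through which NR1D1, NR1D2 and the ROR receptors act on BMAL1. It is shown for BMAL1 because this gene and NR1D1 carried the difference between diets. Within the 1500 bases around its annotated start (1000 before and 500 after), the BMAL1 gene holds the core letters TAGGTCA once. The first base of the core is at position 97 counted from the start, in a stretch that overlaps annotated exons. The stretch is chr2:46025060-46025089, minus strand, read 5′ to 3′ from the RefSeq sequence of Sscrofa11.1, with the core in capitals.
BMAL1: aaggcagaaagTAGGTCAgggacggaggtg
On either strand, 14.8% of 19498 windows of that length hold the same core, so a match describes the letters and does not show a bound site.

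CLOCK encodes the partner of BMAL1, whose transcript is known to vary little over the day. It was the steadiest member: across all 15 pigs it ran from 73.6 to 95.8 CPM, a highest to lowest ratio of 1.30. The C replicates had 83.5, 94.1, 77.7, 80.1 and 89.4 CPM, the DOP replicates 84.5, 91.8, 85.0, 77.7 and 93.6 CPM, and the WCOC replicates 95.8, 77.0, 89.3, 73.6 and 84.0 CPM. The groups overlapped over most of their range. The log2FC was 0.03 in DOP vs. C, -0.02 in WCOC vs. C and -0.04 in WCOC vs. DOP, each with an SE of 0.08, and none was called.

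NR1D1 encodes REV-ERB alpha, a repressor of BMAL1. The gene (ENSSSCG00000036933) lies on the plus strand of chromosome 12, from 22263549 to 22274131. The C replicates had 35.8, 24.4, 22.4, 20.4 and 22.4 CPM. The DOP replicates had 17.7, 36.5, 21.1, 25.2 and 36.01 CPM. The WCOC replicates had 16.9, 12.4, 9.76, 10.96 and 13.5 CPM. Every WCOC pig was below every C and DOP pig, with WCOC replicate 1 and DOP replicate 1 closest together. The highest DOP values, in replicates 2, 4 and 5, were in the DOP libraries richest in skeletal muscle markers. C replicates 1 and 3 also held more than 1000 CPM of those markers, and NR1D1 was highest of the C pigs in replicate 1 but not raised in replicate 3. The call against DOP was lost with flow cell or the muscle markers as a covariate, and without the 5 libraries above 1000 CPM of muscle markers. The mean was 25.1 ± 6.16 CPM in C, 27.3 ± 8.61 CPM in DOP and 12.7 ± 2.72 CPM in WCOC (SD, n = 5 each). The level in WCOC was 1.98-fold lower than in C (log2FC -0.98, SE 0.22, edgeR adjusted p = 0.0143) and 2.15-fold lower than in DOP (log2FC -1.11, SE 0.22, edgeR adjusted p = 0.00757). Between DOP and C the log2FC was 0.12 (SE 0.22, edgeR adjusted p = 0.817).

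NR1D1 shares 2985 bp of exon sequence with THRA, which is annotated on the opposite strand and encodes thyroid hormone receptor alpha. The authors aligned the reads as strand-specific. The strand option of the counting is not given in the sources used here, so reads from the shared stretch are uncertain for both genes. THRA stood at 81.6 ± 6.76 CPM in C, 114.2 ± 12.6 CPM in DOP and 89.4 ± 3.20 CPM in WCOC (SD, n = 5 each). Its log2FC was 0.13 (SE 0.08, edgeR adjusted p = 0.304) in WCOC vs. C and -0.35 (SE 0.08, edgeR adjusted p = 0.0138) in WCOC vs. DOP, both short of the log2FC limit. CRY1 likewise shares exon sequence with TMEM263 on the opposite strand and MTERF2 on its own strand, and CLOCK with TMEM165 on the opposite strand.

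The promoter of NR1D1 is shown because it holds the letters of both arms of the loop within a short stretch. It is chr12:22263179-22263328, plus strand, beginning at position -370 from the annotated start, 5′ to 3′. The capitals mark, in order, the ROR element core TAGGTCA (first base at -344), the E-box CACGTG (at -327) and the E′-box CACGTT (at -314).
NR1D1: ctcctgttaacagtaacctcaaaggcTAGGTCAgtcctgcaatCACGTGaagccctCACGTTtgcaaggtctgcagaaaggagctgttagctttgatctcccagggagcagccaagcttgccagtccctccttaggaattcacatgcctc
Of all windows of 1500 bases, 24% held the E-box and 24.8% the E′-box on either strand. Of the 10 members, 4 held the E-box (PER1, PER3, CRY1 and NR1D1), 4 the E′-box (CLOCK, CRY1, CRY2 and NR1D1) and 5 the ROR core (BMAL1, CRY1, CRY2, NR1D1 and DBP).

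NR1D2 encodes REV-ERB beta, the paralog with a similar role. The C replicates had 73.0, 71.4, 51.0, 53.9 and 75.2 CPM. The DOP replicates had 63.0, 115.3, 78.7, 94.3 and 136.9 CPM. The WCOC replicates had 65.9, 46.3, 37.1, 39.4 and 43.5 CPM. The WCOC values were low apart from replicate 1, which lay above DOP replicate 1 and within the C range, so the groups overlapped. NR1D2 was called in WCOC vs. DOP, where it was 2.10-fold lower (log2FC -1.07, SE 0.21, edgeR adjusted p = 0.00653). NR1D2 lost this call with flow cell or the muscle markers as a covariate, and without the 5 libraries above 1000 CPM of muscle markers. Its log2FC was -0.48 (SE 0.21, edgeR adjusted p = 0.149) in WCOC vs. C and 0.59 (SE 0.20, edgeR adjusted p = 0.160) in DOP vs. C, neither of them called. The highest DOP values, in replicates 2, 4 and 5, belong to the 3 libraries with the most skeletal muscle RNA. In DOP vs. C the log2FC of 0.59 was 0.39 with the muscle markers as a covariate and 0.077 without the 5 libraries, of any diet, above 1000 CPM of muscle markers.

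**Figure D2:**
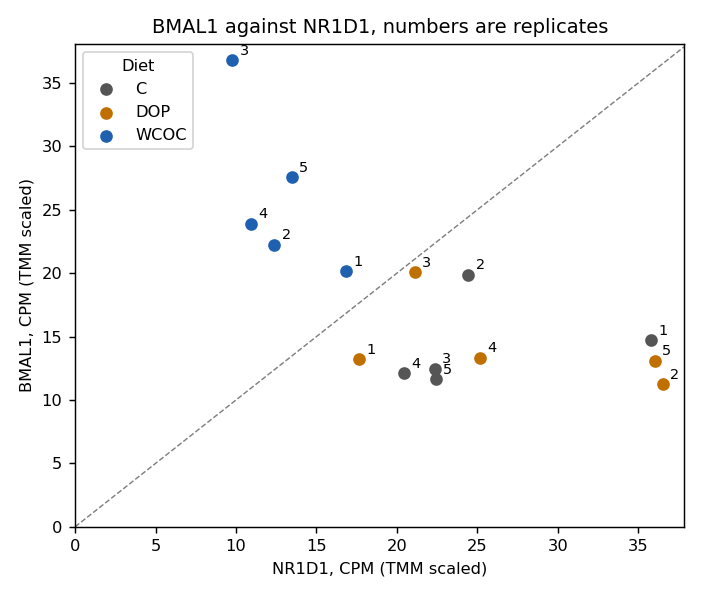
BMAL1 (vertical axis) against NR1D1 (horizontal axis), both in CPM scaled by TMM, with 1 point per pig, its replicate number beside it and the dashed line marking equal levels. The 5 WCOC pigs lie above the line, with BMAL1 over NR1D1 ratios of 1.20 to 3.77, and the 10 C and DOP pigs lie below it.

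The opposition of BMAL1 and NR1D1 could be read within each library, where depth and scaling cancel. The BMAL1 over NR1D1 ratio of CPM was 0.411, 0.813, 0.557, 0.594 and 0.518 in the C replicates. It was 0.748, 0.308, 0.952, 0.530 and 0.364 in the DOP replicates. In the WCOC replicates it was 1.20, 1.79, 3.77, 2.18 and 2.05. The ratio exceeded 1 in all 5 WCOC pigs and in no C or DOP pig. This ratio was chosen after its parts were seen and is given as a description. Because it compares genes of different length, only its differences between pigs carry meaning.

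PER1 encodes a period protein of the inhibitory arm and is also induced directly by glucocorticoids and cAMP. Its gene (ENSSSCG00000017983) lies on the minus strand of chromosome 12, from 53361863 to 53376723. The C replicates had 146.3, 134.9, 118.1, 138.8 and 129.4 CPM. The DOP replicates had 163.3, 226.6, 178.0, 169.6 and 205.1 CPM. The WCOC replicates had 128.6, 144.1, 93.1, 68.9 and 117.8 CPM. The DOP pigs were above all others, and C and WCOC overlapped. PER1 was called in WCOC vs. DOP, 1.71-fold lower (log2FC -0.77, SE 0.16, edgeR adjusted p = 0.0101). That call was lost with flow cell or the muscle markers as a covariate, and without the 5 libraries above 1000 CPM of muscle markers. In DOP vs. C the values did not overlap, as for 3.47% of all tested genes, but the log2FC of 0.50 (SE 0.16, edgeR adjusted p = 0.145) was not called. In WCOC vs. C the log2FC was -0.27 (SE 0.16, edgeR adjusted p = 0.299).

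The promoter of PER1 is shown for its pair of E-boxes, the sites of the BMAL1 and CLOCK pair. It is chr12:53376804-53377023, minus strand, positions -300 to -81 from the start, 5′ to 3′, with CACGTG in capitals at -276 and -93.
PER1: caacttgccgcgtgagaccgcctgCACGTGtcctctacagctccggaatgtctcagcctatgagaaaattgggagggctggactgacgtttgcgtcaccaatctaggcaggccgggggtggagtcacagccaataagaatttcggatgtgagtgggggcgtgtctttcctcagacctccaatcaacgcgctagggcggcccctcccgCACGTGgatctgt
The E-boxes and the other motifs were searched on both strands.

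PER2 encodes the second period protein of the inhibitory arm. It ran from 18.6 to 28.8 CPM in C, with a median of 20.3 CPM, from 13.6 to 28.7 CPM in DOP, with a median of 19.98 CPM, and from 13.6 to 25.7 CPM in WCOC, with a median of 17.1 CPM. The ranges overlapped broadly. Its log2FC was -0.15 in DOP vs. C, -0.30 in WCOC vs. C and -0.15 in WCOC vs. DOP, each with an SE of 0.20, and none was called.

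CRY1 and CRY2 encode the cryptochromes, the repressors that partner the PER proteins. CRY1 had 14.03, 17.8, 16.6, 14.2 and 18.6 CPM in the C replicates, 14.5, 16.3, 14.3, 13.97 and 16.5 CPM in the DOP replicates, and 17.999, 15.7, 21.02, 22.3 and 23.1 CPM in the WCOC replicates. Of the WCOC pigs, 3 exceeded all C and DOP pigs. CRY1 had an edgeR adjusted p of 0.0365 in WCOC vs. DOP, but its log2FC of 0.40 (SE 0.12) fell short of the limit and it was not called. Against C the log2FC was 0.30 (SE 0.12, edgeR adjusted p = 0.116).
CRY2 ran from 52.7 to 66.7 CPM in C, from 44.6 to 90.3 CPM in DOP and from 54.0 to 97.7 CPM in WCOC. The WCOC range covered nearly the whole C range and reached beyond it, and the log2FC was 0.29 (SE 0.17, edgeR adjusted p = 0.307) in WCOC vs. C, with 0.15 in DOP vs. C and 0.14 in WCOC vs. DOP.

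DBP, a D-box factor, is a direct output of the BMAL1 and CLOCK pair. The C replicates had 42.2, 28.0, 33.2, 51.8 and 32.8 CPM, the DOP replicates 24.0, 35.2, 32.6, 34.7 and 40.4 CPM, and the WCOC replicates 30.6, 47.3, 21.02, 22.8 and 38.9 CPM. The spread within a diet covered any difference between diets. The log2FC was -0.17 in DOP vs. C, -0.23 in WCOC vs. C and -0.06 in WCOC vs. DOP, each with an SE of 0.22, and none was called. DBP also had the widest spread between pigs of one diet among the members, with an SD of 0.39 on the log2 CPM scale, where CLOCK had 0.13 and the median of all tested genes was 0.25.
The stretch just before the annotated DBP start is chr6:53993045-53993144, minus strand, and is shown because the ROR core, in capitals, begins at position -42, while the 1500 bases around it hold no CACGTG.
DBP: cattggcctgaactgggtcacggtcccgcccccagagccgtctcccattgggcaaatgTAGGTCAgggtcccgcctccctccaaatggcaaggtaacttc

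**Figure D3:**
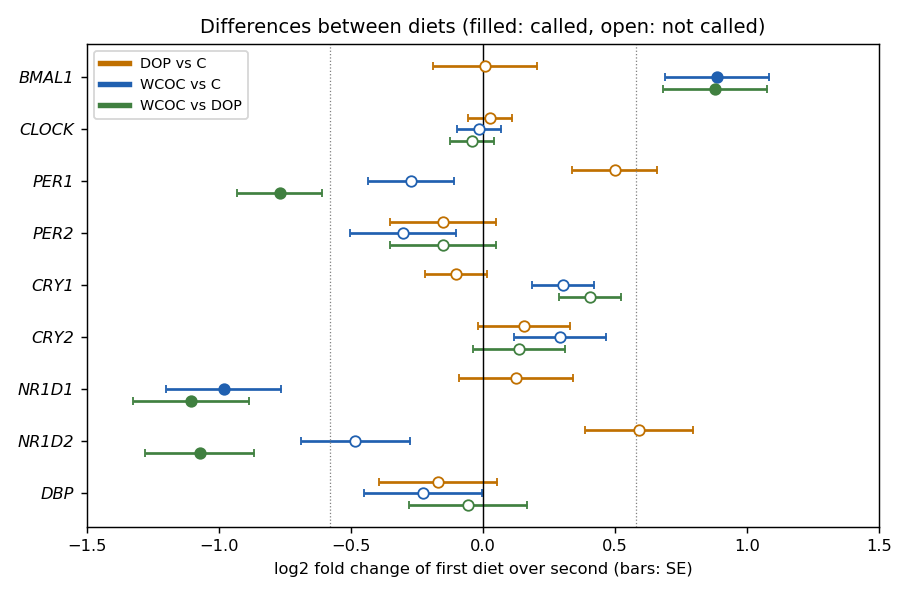
log2FC of the 9 clock genes (vertical axis) in the 3 comparisons of diets (horizontal axis, log2 scale, positive where the first diet is higher); points are edgeR estimates from 5 pigs per diet, bars are 1 SE, filled points were called and dotted lines mark 0.58 in size. BMAL1 lies at 0.89 and 0.88 and NR1D1 at -0.98 and -1.11 in the WCOC comparisons, and CLOCK lies near 0 in all 3.

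Levels of different genes were compared only per length, as CPM per kilobase of the median RefSeq transcript over all 15 libraries. PER1 was highest at 30.3 CPM per kilobase, followed by DBP at 17.5, CLOCK at 14.7, CRY2 at 14.2 and NR1D2 at 13.8. BMAL1 stood at 6.26, NR1D1 at 4.11, PER2 at 3.16 and CRY1 at 1.90 CPM per kilobase. The gap between BMAL1 and NR1D1 differed by diet: in C they stood at 4.88 ± 1.17 and 4.76 ± 1.17 CPM per kilobase, in DOP at 4.90 ± 1.17 and 5.17 ± 1.63, and in WCOC at 9.01 ± 2.26 and 2.40 ± 0.515 CPM per kilobase (SD, n = 5). Range among the 15 pigs separated the members in another order, with NR1D1 (3.74-fold from lowest to highest), NR1D2 (3.69-fold), PER1 (3.29-fold) and BMAL1 (3.27-fold) ahead of DBP (2.46-fold), CRY2 (2.19-fold), PER2 (2.12-fold), CRY1 (1.65-fold) and CLOCK (1.30-fold).

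Leaving out any 1 library of the diets compared kept the number of members called at 2 in WCOC vs. C, 4 in WCOC vs. DOP and 0 in DOP vs. C. Within flow cell A, with 4 C and 5 WCOC libraries, NR1D1 was called (log2FC -1.03, edgeR adjusted p = 0.0207) and BMAL1 was not (log2FC 0.81, edgeR adjusted p = 0.0502). There, 486 of 14698 tested genes were called. No flow cell held both WCOC and DOP libraries, so their contrast with flow cell as a covariate rested on C replicate 5 alone. With that covariate 0 members were called in WCOC vs. DOP, where 1 of all 14918 tested genes was called. The log2FC was then 0.53 for BMAL1 (edgeR adjusted p = 0.549), -1.30 for NR1D1 (0.317), -0.80 for NR1D2 (0.413) and -0.83 for PER1 (0.346).

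Cell markers moved with the diets as well. Of the 7 adipocyte markers, 1 was called higher in WCOC vs. C (median log2FC 0.42) and 2 in WCOC vs. DOP (median 0.29). Beside these, 2.33% and 2.65% of all tested genes were called higher. Adipocyte markers were not fitted as a covariate. Of the 8 macrophage markers, 4 were called lower in WCOC vs. C, with a median log2FC of -1.17. With their mean as a covariate, neither BMAL1 nor NR1D1 was called in WCOC vs. C. Over all 14918 tested genes, 41 were called with that covariate, against 933 without it. The log2FC of BMAL1 was then smaller, at 0.63 (edgeR adjusted p = 0.375), and that of NR1D1 larger in size, at -1.26 (edgeR adjusted p = 0.0956). In WCOC vs. DOP the same covariate kept all 4 calls (1032 over all tested genes). In WCOC vs. C the muscle markers or the flow cell as a covariate kept both (891 and 680 over all tested genes). With the muscle markers as a covariate, 0 members were called in WCOC vs. DOP, where 445 of 14918 tested genes were called, against 1158 without it. The log2FC was then 0.66 for BMAL1 (edgeR adjusted p = 0.0986), -0.72 for PER1 (0.0522), -0.73 for NR1D1 (0.0533) and -0.80 for NR1D2 (0.0533). As a setting chosen after the data were seen, the 5 libraries above 1000 CPM of muscle markers (C replicates 1 and 3, and DOP replicates 2, 4 and 5) were left out. Then NR1D1 alone was called in WCOC vs. C (log2FC -0.83, edgeR adjusted p = 0.0286), BMAL1 had a log2FC of 0.84 (edgeR adjusted p = 0.0999), and 0 members were called in WCOC vs. DOP, which kept 2 DOP libraries. Of 15333 genes tested in that setting, 354 were called in WCOC vs. C and 92 in WCOC vs. DOP.

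Partners of the clock were read from a list of 26 genes, also chosen with earlier results known, of which 23 could be tested. Of these, 1 was called higher in WCOC vs. C (NFIL3) and 2 lower (BHLHE40 and TIMELESS), with a median log2FC of -0.06 over the list (13.04% called, beside 6.25% of all tested genes). In WCOC vs. DOP, 1 was called higher (NFIL3) and 2 lower (TIMELESS and USP2), with a median of -0.13 (13.04% called, beside 7.76%). In DOP vs. C, 0 of 23 were called by edgeR and 0 by DESeq2, 4 had an unadjusted p under 0.05, a share close to the 17.6% of all tested genes, and the median was 0.03. No comparison called any of the 3 ROR receptors, the 7 kinases and phosphatases that act on PER and CRY proteins, or BMAL2, the activator paralog that could be tested.

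BHLHE40 (DEC1) is an E-box repressor that competes with the BMAL1 and CLOCK pair. It had 67.4 to 121.5 CPM in C, with a median of 89.6 CPM, 43.5 to 96.7 CPM in DOP, with a median of 73.8 CPM, and 34.3 to 59.8 CPM in WCOC, with a median of 44.0 CPM. No WCOC pig reached the lowest C pig, and BHLHE40 was 2.08-fold lower in WCOC vs. C (log2FC -1.06, SE 0.21, edgeR adjusted p = 0.00760). Each of the 10 fits that left out 1 library kept this call. It was lost with the macrophage list as a covariate (log2FC -0.999, edgeR adjusted p = 0.196) and without the 5 libraries above 1000 CPM of muscle markers (log2FC -0.84, edgeR adjusted p = 0.0591). It was not called in WCOC vs. DOP (log2FC -0.63, SE 0.21, edgeR adjusted p = 0.0603), where DESeq2 gave an adjusted p of 0.0264.

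NFIL3 (E4BP4) represses the D-box sites that DBP activates, and its gene is itself under ROR element control. It had 27.4 to 36.9 CPM in C, 21.2 to 32.1 CPM in DOP and 38.8 to 58.4 CPM in WCOC, with no overlap of WCOC with either other diet. It was 1.501-fold higher in WCOC vs. C (log2FC 0.59, SE 0.13, edgeR adjusted p = 0.0145) and 1.76-fold higher in WCOC vs. DOP (log2FC 0.81, SE 0.13, edgeR adjusted p = 0.00280). The call against C sat at the log2FC limit and held in 5 of 10 fits that left out 1 library, and the call against DOP held in 10 of 10. The call against DOP was lost with flow cell as a covariate (log2FC 0.9994, edgeR adjusted p = 0.253) and without the 5 libraries above 1000 CPM of muscle markers (log2FC 0.77, edgeR adjusted p = 0.0669). The call against C was lost with either marker list as a covariate (log2FC 0.55 for muscle and 0.51 for macrophage) and without those 5 libraries (log2FC 0.46, edgeR adjusted p = 0.0896). Like BMAL1, NFIL3 was higher in WCOC where NR1D1 was lower, and a link of NFIL3 to NR1D1 was not tested.

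TIMELESS, better known for replication fork protection in mammals, was low, at 4.81 ± 1.71 CPM in C, 4.89 ± 0.733 CPM in DOP and 2.74 ± 0.712 CPM in WCOC (SD, n = 5 each). It was called lower in WCOC vs. C (log2FC -0.81, SE 0.25, edgeR adjusted p = 0.0497) and WCOC vs. DOP (log2FC -0.83, SE 0.25, edgeR adjusted p = 0.0395), each in only 2 of 10 fits that left out 1 library. USP2, a deubiquitinase of clock proteins that muscle also expresses, was lower in WCOC vs. DOP (log2FC -3.18, SE 0.82, edgeR adjusted p = 0.0240). Its level in DOP replicate 5, the library richest in muscle markers, was 52.1 CPM, and without the 5 libraries above 1000 CPM of muscle markers its log2FC was -0.19 (edgeR adjusted p = 0.912). CIART, a repressor of the BMAL1 and CLOCK pair chosen after its values were seen, lay a hair below the limit in WCOC vs. DOP, with a log2FC of -0.58 (SE 0.11, edgeR adjusted p = 0.00734).

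**Figure D4:**
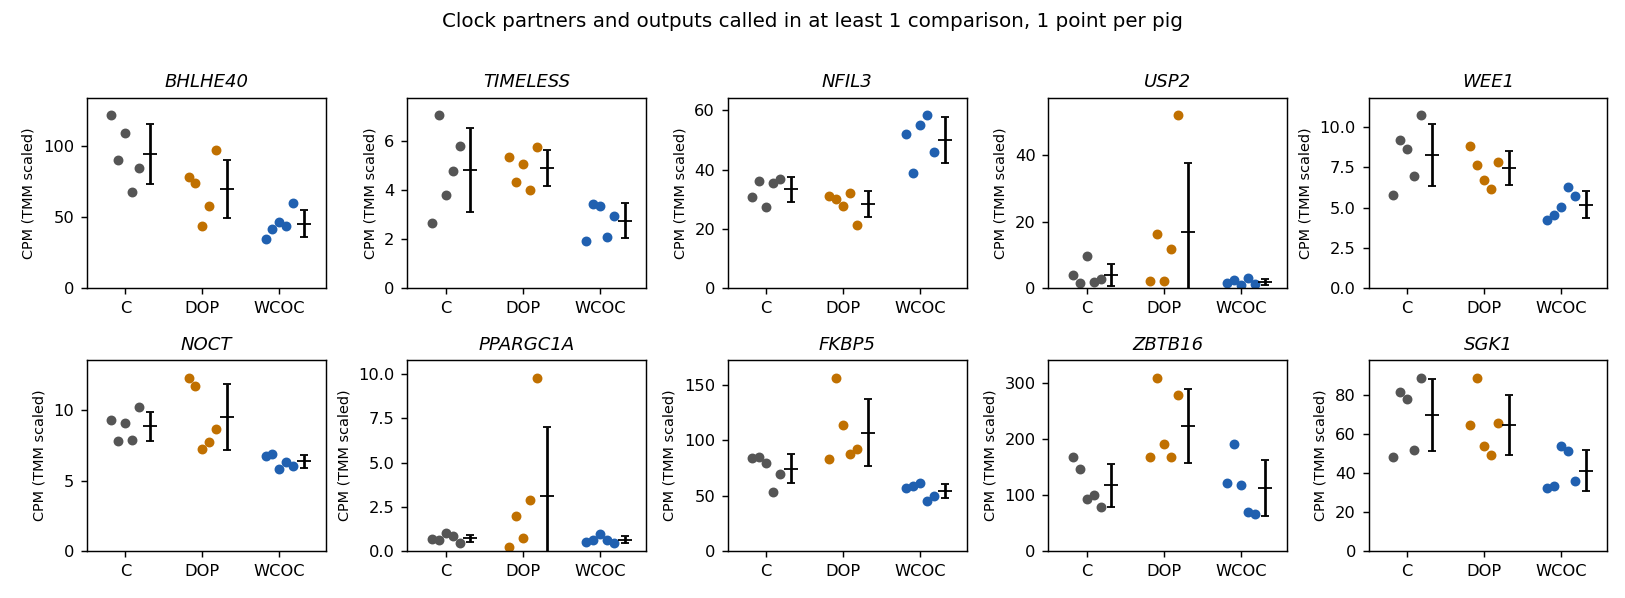
Level of the 10 clock partners, clock outputs and glucocorticoid-linked genes that were called in at least 1 comparison (vertical axis, CPM scaled by TMM, from 0) by diet (horizontal axis, 5 pigs per diet); points are pigs and the bar is the mean with 1 SD, cut off where it would pass below 0. BHLHE40 lies between 34.3 and 59.8 CPM in WCOC, below all C pigs, and USP2 and PPARGC1A are highest in DOP replicate 5.

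Among 10 genes that the clock is known to drive, 1 was called in WCOC vs. C and 2 in WCOC vs. DOP, all lower in WCOC, beside 3.93% and 5.11% of all tested genes called lower. WEE1, a cell cycle kinase with E-boxes, fell 1.60-fold in WCOC vs. C (log2FC -0.68, SE 0.17, edgeR adjusted p = 0.0235). NOCT (nocturnin), a rhythmic NADPH phosphatase, fell by 0.58 on the log2 scale in WCOC vs. DOP (SE 0.15, edgeR adjusted p = 0.0249). PPARGC1A, a coactivator of mitochondrial genes, was lower in WCOC vs. DOP (log2FC -2.29, SE 0.70, edgeR adjusted p = 0.0438), and without the 5 libraries above 1000 CPM of muscle markers its log2FC was 0.44 (edgeR adjusted p = 0.800). These calls held in 7, 5 and 2 of 10 fits that left out 1 library. DESeq2 did not call NOCT in WCOC vs. DOP, where its log2FC of -0.579 fell short of the limit. In DOP vs. C, DESeq2 called PPARGC1A higher (log2FC 2.12, DESeq2 adjusted p = 0.0330), and edgeR did not (log2FC 2.12, edgeR adjusted p = 0.147).

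Genes that respond to glucocorticoids, a hormone signal that resets clocks in fat, were read beside PER1. Of the 8 tested, 1 was called lower in WCOC vs. C (SGK1, a kinase) and 2 in WCOC vs. DOP (FKBP5, a cochaperone of the receptor, and ZBTB16, a transcription factor), beside the same 3.93% and 5.11% of all tested genes. FKBP5 had 83.1 to 156.8 CPM in DOP and 45.1 to 61.2 CPM in WCOC without overlap (log2FC -0.98, SE 0.17, edgeR adjusted p = 0.00413), and its call held in 10 of 10 fits that left out 1 library. It was lost with flow cell as a covariate (log2FC -1.09, edgeR adjusted p = 0.302) and without the 5 libraries above 1000 CPM of muscle markers (log2FC -0.86, edgeR adjusted p = 0.0792). ZBTB16 had a log2FC of -0.98 (SE 0.30, edgeR adjusted p = 0.0438) and SGK1 one of -0.76 (SE 0.21, edgeR adjusted p = 0.0364), calls that held in 3 and 4 of 10 fits that left out 1 library. The ZBTB16 call was lost with flow cell, the muscle markers or the macrophage markers as a covariate. That of SGK1 was lost with flow cell or the macrophage markers as a covariate and in flow cell A alone. Both were lost without those 5 libraries. The list median was -0.58 in WCOC vs. DOP and -0.10 in WCOC vs. C, and the DOP pigs had higher means of FKBP5 (106.98 CPM) and ZBTB16 (223.4 CPM) than the C pigs (74.6 and 117.2 CPM), differences that edgeR did not call and of which DESeq2 called that of ZBTB16 (adjusted p = 0.0382).

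Pigs on one diet could also differ in clock state, so pairs of members were correlated across the 15 libraries after the diet means were removed from log2 CPM. Of 36 pairs, 1 passed an adjusted p of 0.05 (Benjamini-Hochberg over the 36 pairs, 100000 permutations within diets, two-sided). NR1D1 and NR1D2 varied together, with Pearson's r = 0.87 (permutation p = 0.00022, adjusted p = 0.00792) and Spearman's rho = 0.85 (permutation p = 0.00087, adjusted p = 0.0313). Without the 2 libraries farthest from the median of NR1D1 (C replicate 1 and DOP replicate 2), r was 0.92, and within flow cell A, over 9 libraries, it was 0.86 (permutation p = 0.00211, adjusted p = 0.0760). Flow cell B held 6 libraries, of which 1 was from C, and was not read alone.

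**Figure D5:**
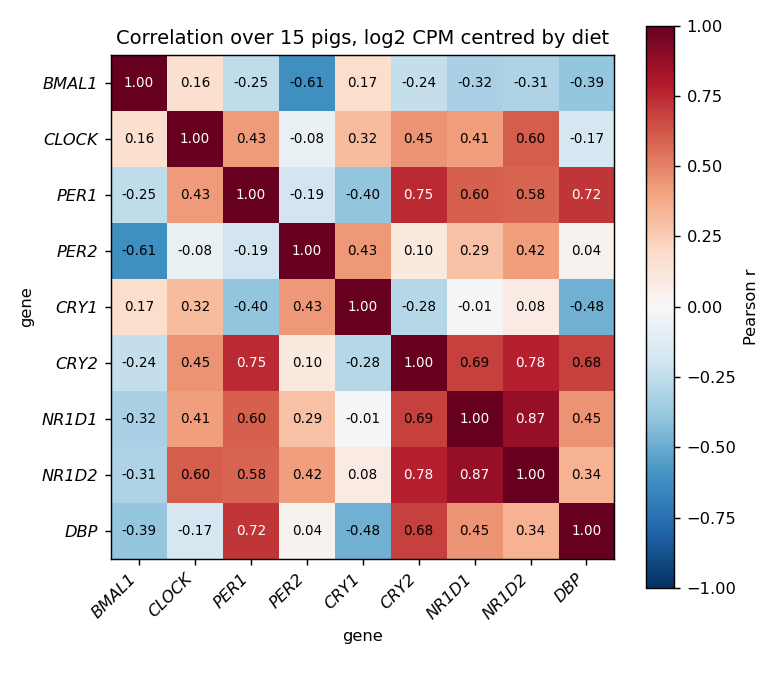
Pearson's r between the 9 clock genes (both axes) over 15 pigs, from log2 CPM with diet means removed; red is positive, blue is negative and the number in each cell is r. NR1D1 and NR1D2 stand at 0.87, the only pair with an adjusted permutation p under 0.05. PER1, CRY2, NR1D1, NR1D2 and DBP are positive with each other while BMAL1 is negative with all 5 of them. Those 5 values of BMAL1 run from -0.39 (DBP) to -0.24 (CRY2), with adjusted permutation p from 0.414 to 0.591.

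The next pairs were CRY2 with NR1D2 (r = 0.78, permutation p = 0.00346, adjusted p = 0.0526) and PER1 with CRY2 (r = 0.75, permutation p = 0.00438, adjusted p = 0.0526). PER1 with DBP had r = 0.72 and CRY2 with NR1D1 had r = 0.69, both at an adjusted permutation p of 0.0655. BMAL1 had r = -0.61 with PER2 (adjusted permutation p = 0.105) and r = -0.32 with NR1D1 (adjusted permutation p = 0.486), neither of them past the threshold. Without the 2 libraries farthest from the median of BMAL1 (DOP replicate 3 and WCOC replicate 3), r was -0.30 with PER2 and -0.025 with NR1D1. The number of pairs past the adjusted p was 6 by Spearman's rho, 0 within flow cell A and 2 without the 2 farthest libraries of each pair.

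Of 11133 genes with a symbol and a mean of at least 1 CPM, those most like BMAL1 across the 15 libraries, by Pearson's r of log2 CPM with diet means removed, were HOXC8 (0.84), TUBGCP4 (0.83), GTF3C3 (0.83), GLRB (0.80) and OGFOD1 (0.80). Those most opposed to it were KIAA1755 (-0.84), TMEM185B (-0.80), MAX (-0.79), GREB1 (-0.76) and FAM53B (-0.76). For DBP the most alike were TNK2 (0.89), GTF2E2 (0.87), SMG5 (0.87), ISY1 (0.86) and NEDD8 (0.86), and the most opposed PTPDC1 (-0.91), MEOX1 (-0.90), ABI1 (-0.89), IL33 (-0.88) and STOM (-0.88). No member was among these 20. The points share libraries and depth, and the values describe likeness only.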

How the data were processed

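Backfat RNA of 15 pigs (5 per diet, separate animals) was measured as 1 library each. The authors aligned read pairs to Sscrofa11.1 with HISAT2 and made the deposited raw counts per Ensembl gene with HTSeq. Versions, annotation release and the strand option of the counting are not given in the sources used here. Summary lines without a gene (23.4% to 32.8% of a library) were left out. CPM and log2 values were computed here.

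Symbols came from a reference table, and RefSeq gave positions and sequences of the same build. With R 4.3.3 and edgeR 4.0.16, genes were kept by filterByExpr (14918 of 30477), scaled by TMM and fitted by quasi-likelihood over all 15 libraries, with two-sided tests and p-values adjusted by Benjamini-Hochberg across every tested gene. The common dispersion was 0.0814. log2 CPM used a prior count of 1. The flow cell was read from run identifiers. In simulated data of WCOC vs. C size, 72 of 100 genes changed 2-fold and 92 of 100 changed 4-fold were called. The simulated counts were drawn gene by gene, without a flow cell effect or muscle-rich libraries.

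The members and lists were chosen with earlier results of these data known. Named genes are the members, every listed partner, output or glucocorticoid-linked gene called in a comparison, and the 5 most alike and 5 most opposed to BMAL1 and DBP. Outside this rule, CIART was chosen after its values were seen, and genes that overlap a member (THRA, TMEM263, MTERF2, TMEM165) and cell markers are also named. Alternatives were DESeq2 1.42.0 and its size factors, filters, only the diets compared, replicate block, flow cell, marker lists as covariates, no log2FC limit, and leaving out libraries. Replicate numbers come from the labels, which do not say that they mark shared litters or days. Figures used Python 3.11.15 and matplotlib 3.10.9.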

Additional observations from a re-analysis of the deposited data

Results flagged for a closer look

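In 57 groups of 5 pigs (19 genes in 3 diets), 4 had a pig whose gap to its nearest neighbour took up more of the group's range than Dixon's limit for 5 values, where chance flags about 1 in 20 groups. BMAL1 in DOP replicate 3 was 20.1 CPM, with the next DOP pig at 13.3 CPM. NR1D1 in C replicate 1 was 35.8 CPM, with the next C pig at 24.4 CPM. PPARGC1A in DOP replicate 5 was 9.80 CPM, with the next at 2.89 CPM, and USP2 in the same library was 52.1 CPM, with the next at 16.3 CPM. That library also held the highest sum of skeletal muscle markers, 40652 CPM, and its part in both values was not tested.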

How the results depend on the processing

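Calls of members were steady to scaling, filters and tool: with a stricter filter (10 counts in each library), without any filter, with the size factors of DESeq2 and by DESeq2 itself, 0 members were called in DOP vs. C, 2 in WCOC vs. C, and 4 in the contrast of WCOC with DOP. Against C, 2 also stayed called with flow cell or the muscle list as a covariate, and in WCOC vs. DOP 4 with the macrophage list. Other settings lost calls. In WCOC vs. C the members called were 0 with the macrophage list as a covariate (NR1D1 at a larger log2FC of -1.26, BMAL1 at a smaller 0.63), 1 in flow cell A alone and 1 without the 5 libraries over 1000 CPM of the muscle list. In WCOC vs. DOP they were 0 with flow cell as a covariate, 0 with the muscle list as a covariate and 0 without those 5 libraries, which leaves fewer samples. Estimates moved as well. Over the alternative settings of WCOC vs. DOP the log2FC ran from 0.53 to 0.89 for BMAL1 and from -0.83 to -0.63 for PER1. It ran from -1.30 to -0.61 for NR1D1 and from -1.19 to -0.61 for NR1D2. Calls over all genes fell in the same settings, as counted below. The cause of these losses was not tested.

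Whether the replicate numbers pair the samples was not settled. Deviations of same-numbered pigs correlated from -0.495 to 0.345, and differently numbered pigs were not compared. With the replicate number as a block, 0 genes were called in DOP vs. C, 473 in WCOC vs. C and 561 in WCOC vs. DOP, against 114, 933 and 1158 without it, and the members called stayed at 0, 2 and 4. The block ended the calls of NFIL3 (against C), TIMELESS, WEE1, SGK1, NOCT, USP2 and PPARGC1A, and flow cell as a covariate those of TIMELESS, WEE1, SGK1, NOCT, USP2, PPARGC1A, ZBTB16, FKBP5 and NFIL3 (against DOP).

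Over all genes, DOP vs. C gave 43 calls with the muscle list as a covariate, 48 with the macrophage list, 2 with only those diets fitted, 507 by DESeq2 and 0 without the 5 libraries. WCOC vs. C gave 41 with the macrophage list, 486 in flow cell A, 354 without the 5 libraries and 1493 with no log2FC limit. WCOC vs. DOP gave 1 with flow cell, 445 with the muscle list, 92 without the 5 libraries and 1842 with no limit. Leaving out 1 library gave 0 to 200 calls in DOP vs. C (200 without C replicate 1, 46 without C replicate 4, 4 without DOP replicate 3, 1 without DOP replicate 5, and 0 without C replicate 3 or 5 or DOP replicate 2 or 4). It gave 468 to 1163 in WCOC vs. C (468, 532 and 596 without WCOC replicate 1, C replicate 3 and WCOC replicate 4). It gave 639 to 1291 in WCOC vs. DOP (639, 699, 700 and 731 without WCOC replicate 1, DOP replicate 5, WCOC replicate 4 and DOP replicate 2). The members called remained 0, 2 and 4 in these fits.

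Uncalled members changed sign where their log2FC was small. In DOP vs. C, BMAL1 was -0.019 with the replicate block, -0.11 with the macrophage list and -0.0051 with only those diets. CLOCK was -0.048 with flow cell, -0.021 with the macrophage list and -0.059 without the 5 libraries. NR1D1 was -0.11 with the muscle list, -0.017 with the macrophage list and -0.22 without the 5 libraries. CRY2 was -0.10 without them, and DBP was 0.027 with flow cell. In WCOC vs. C, CLOCK was 0.0018 with flow cell. In WCOC vs. DOP, CLOCK was 0.050 and PER2 0.33 with flow cell, PER2 was 0.13 and DBP 0.14 with the muscle list, and without the 5 libraries PER2 was 0.24 and DBP 0.18. PPARGC1A, a called output with a log2FC of -2.29 in WCOC vs. DOP, reversed to 0.44 without the 5 libraries, and the cause was not tested. Leaving out 1 library moved BMAL1 from -0.16 to 0.16, CLOCK from -0.011 to 0.065 and NR1D1 from -0.011 to 0.28 in DOP vs. C, CLOCK from -0.069 to 0.032 in WCOC vs. C, and CLOCK from -0.095 to 0.012, PER2 from -0.30 to 0.0094 and DBP from -0.24 to 0.063 in WCOC vs. DOP.

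The correlated pairs past an adjusted p of 0.05 numbered 6 by Spearman's rho, 0 in flow cell A and 2 without the 2 farthest libraries, against 1. With 5 pigs per diet, simulated 2-fold changes were called in 72 of 100 genes. Those counts were drawn gene by gene, without a flow cell effect or muscle-rich libraries, so the share may not hold for the real data.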
